A study of Mus musculus with 8 samples.

Results

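The muscle acetylcholine receptor and the proteins that gather it at the synapse were followed in C2C12 myotubes through 10 genes. They are the receptor subunits Chrna1, Chrnb1, Chrnd, Chrng and Chrne and the synapse organisers Agrn, Lrp4, Musk, Dok7 and Rapsn. All non-control array probes that carry one of these gene names were taken, which gave 13 of 55681 probes and 10 of 23901 named genes. C2C12 is an established line of mouse myoblasts that fuse into myotubes in low serum. The cells had received either a control siRNA or an siRNA against macroH2A1.1, the ADP-ribose-binding isoform of the histone macroH2A1, and were harvested as myotubes at differentiation day 4. Each siRNA had 4 samples, each on a 1-colour array of its own. A sample characteristic calls the treated cells a knockout, but the titles name an siRNA, and they are described here as siRNA-treated. The labels name 1 cell line and no nerve cells, and give neither the siRNA sequence nor its timing.

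The muscle receptor is a ring of subunits around an ion channel that opens when acetylcholine binds. In fetal and denervated muscle the ring holds the gamma subunit (Chrng), and in innervated adult muscle the epsilon subunit (Chrne) takes its place. Agrin (Agrn) released by the nerve binds LRP4 (Lrp4), which activates the receptor tyrosine kinase MuSK (Musk). Muscle makes agrin too, and which splice form the Agrn probes detect was not tested. DOK7 (Dok7) binds MuSK inside the cell and is needed for its activity, and rapsyn (Rapsn) ties the receptors into clusters.

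The probe for the fetal subunit is shown because the measurement of Chrng rests on it. It is written in lower case throughout, since no motif is marked.
Chrng: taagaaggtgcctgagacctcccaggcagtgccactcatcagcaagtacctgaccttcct
In the mm9 coordinates of the array files, the Chrng probe lies on the plus strand at chr1:89106072-89106353. It covers 282 bases of genome with 60 bases of probe, so it crosses an exon junction. No member probe shared a run of 20 bases with a probe of another gene.

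Start regions were available from RefSeq (GRCm38.p6) for 7 of the 10 genes. The letters CAGCTG are a form of the E-box, the kind of site that MyoD and myogenin bind, and CCGGAA is the core of the N-box of synaptic genes. The stretches before the Chrng and Chrne starts are printed because these genes are the fetal and adult forms of 1 subunit. They cover 250 bases on the plus strand at chr1:87205561-87205810 for Chrng and 231 bases on the minus strand at chr11:70619214-70619444 for Chrne, with CAGCTG and CCGGAA in capitals. The last Chrne base printed lies 20 bases before the start, since the bases after it fall inside the annotated gene.
Chrng: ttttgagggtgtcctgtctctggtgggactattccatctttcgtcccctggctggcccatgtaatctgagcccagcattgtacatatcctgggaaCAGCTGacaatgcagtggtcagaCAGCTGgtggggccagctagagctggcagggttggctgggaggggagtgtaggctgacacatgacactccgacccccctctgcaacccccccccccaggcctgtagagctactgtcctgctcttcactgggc
Chrne: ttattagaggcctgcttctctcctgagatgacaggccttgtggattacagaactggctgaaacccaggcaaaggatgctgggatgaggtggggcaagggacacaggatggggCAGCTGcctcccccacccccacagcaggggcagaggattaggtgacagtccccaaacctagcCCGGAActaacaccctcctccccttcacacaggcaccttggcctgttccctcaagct
CAGCTG, which reads the same on both strands, occurred 2 times in the 300-base window of Chrng (250 bases before the start and 50 after), 2 times for Chrna1, 1 time for Musk and 1 time for Chrne. It was not in the windows of Chrnb1, Dok7 or Agrn, and 16.3% of 32851 RefSeq windows held it. CCGGAA, searched on both strands, was in the Chrne window and in no other member window, and 14.9% of all windows held it. These matches describe letters and not sites in use.

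Macroh2a1, the gene whose macroH2A1.1 form the siRNA was directed against, gave less signal in treated cells. The Macroh2a1 probe with the highest signal read 1.56, 1.58, 1.63 and 1.52 (log2 of the signal over the 75th percentile of its array, the scale of all levels here) in control replicates 1 to 4 and 0.50, 0.66, 0.40 and 0.80 with macroH2A1.1 siRNA. It fell by 0.98 (SE 0.10, limma adjusted p = 0.043), and all 3 Macroh2a1 probes were lower in every treated sample than in any control, with 37.5% to 50.6% of the signal left. The probes are named here by the gene, and which splice form each detects was not tested. The unpaired call was lost on leaving out any 1 array other than macroH2A1.1 siRNA replicate 4 (limma adjusted p for Macroh2a1 between 0.094 and 0.198, differences from -1.01 to -0.92), and the paired call on leaving out number 1, 2 or 3. With all 8 arrays the unpaired call was also lost with median centring (limma adjusted p = 0.056), the mean of a gene's probes (0.053) and probes near background kept (0.063). The last setting also lost the paired call (0.072). Tested singly, the 3 probes had limma adjusted p of 0.053, 0.053 and 0.136 unpaired and 0.024, 0.024 and 0.034 paired. On each array between 46.9% and 49.8% of spots were well above background, and no spot was saturated. Replicate 2 of macroH2A1.1 siRNA lay far from the rest in a principal component analysis (60.05 on component 1, where the others ran from -27.4 to 8.04). Same-numbered samples deviated together (correlations of 0.61, 0.55, 0.67 and 0.41), so values are given both unpaired and paired, the latter from a fit in which the replicate number is a block. Among 13710 genes 3 had a limma adjusted p under 0.05 in the unpaired fit (0.0219%) and 1113 in the paired fit (8.12%). The paired count was 0 when replicate 1 or replicate 3 was left out of both groups and 535 when replicate 4 was, with the value for replicate 2 between these.

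The fetal subunit was measured on every array and the adult subunit on almost none. Chrng read 3.28, 2.82, 3.33 and 3.30 in control replicates 1 to 4 and 3.59, 3.03, 3.24 and 3.59 with macroH2A1.1 siRNA. The groups overlapped, and control replicate 2 was the lowest array. The difference was 0.18 (SE 0.17, 95% interval -0.21 to 0.57, limma adjusted p = 0.753 unpaired and 0.237 paired). It was 0.06 without control replicate 2 and 0.29 without macroH2A1.1 siRNA replicate 2. The Chrne probe was well above background on 1 of 4 control arrays and 0 of 4 macroH2A1.1 siRNA arrays. On that array, control replicate 3, it read -3.93, where the lowest signal well above background was -4.36. The other arrays gave only an upper bound, so no fold is given for Chrne, and the planned comparison of Chrne minus Chrng between the groups was not tested. Control replicate 3 was also the only array on which the dimmer of the Agrn probes was above background.

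The other subunits of the receptor were measured on all 8 arrays. Chrnd, the delta subunit, read 6.40, 6.27, 6.69 and 6.62 in control cells and 7.17, 6.76, 6.93 and 6.83 with macroH2A1.1 siRNA. Every macroH2A1.1 siRNA sample was above every control sample, and the difference was 0.43 (SE 0.13), a 1.34-fold higher mean with a 95% interval of 1.09 to 1.65. The limma adjusted p over all genes was 0.260 unpaired and 0.072 paired, so Chrnd did not pass. Its probe lies at chr1:89096585-89096644 (mm9), and in the RefSeq gene table Chrng is the next protein-coding gene after Chrnd. Whether these neighbours differed in their response was not tested.

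Chrna1, whose alpha subunit carries the acetylcholine-binding sites, had 2 probes. The brighter, at chr2:73404112-73404171, read 7.66, 7.54, 7.60 and 7.62 in control cells and 7.94, 7.73, 7.54 and 7.70 with macroH2A1.1 siRNA. These groups overlapped, with a difference of 0.12 (SE 0.10, 95% interval -0.10 to 0.35, limma adjusted p = 0.707). The other probe, at chr2:73401389-73401448, had the opposite sign, -0.06 (SE 0.11, limma adjusted p = 0.930 over all probes). Chrnb1, the beta subunit, read 2.37, 1.8, 1.58 and 2.23 in control cells and 2.59, 2.13, 1.79 and 2.35 with macroH2A1.1 siRNA. Its replicates differed among themselves by more than its groups did, yet the macroH2A1.1 siRNA sample was above the control sample of the same number each time. The difference of 0.22 had an SE of 0.22 unpaired and 0.06 paired (limma adjusted p = 0.780 unpaired and 0.087 paired). Its probe covers 569 bases of genome at chr11:69598674-69599242 and so also crosses an exon junction.

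**Figure D1:**
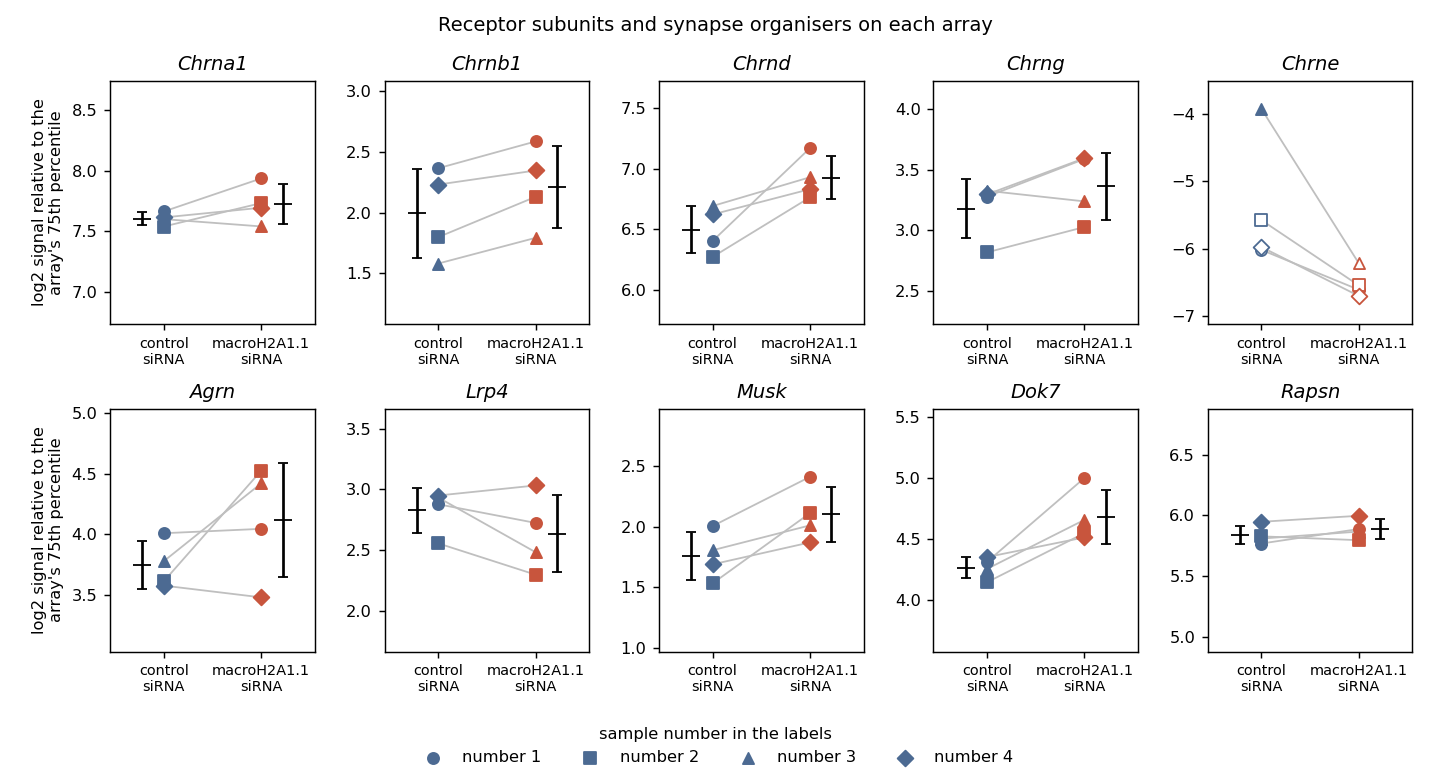
Log2 of the signal over the 75th percentile of its array for the brightest probe of each gene, with 1 point per array, lines joining samples of the same number, and bars for mean and SD (n = 4 per group). Open Chrne points are not well above background and carry no mean. Only Chrnd and Dok7 have groups that do not overlap among the 9 genes tested, against 7.96% of all genes (4.41% with macroH2A1.1 siRNA higher).

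Among the organisers, Dok7, Agrn and Musk had the larger differences, all with higher means in macroH2A1.1 siRNA cells, and none of them passed. Dok7 read 4.31, 4.14, 4.25 and 4.35 in control cells and 5.0, 4.55, 4.66 and 4.51 with macroH2A1.1 siRNA. The groups did not overlap, and the difference was 0.42 (SE 0.12), or 1.33-fold with a 95% interval of 1.1 to 1.62. The limma adjusted p was 0.244 unpaired and 0.057 paired. Its other probe lies further along the gene, at chr5:35430414-35430473 against chr5:35423495-35423554, and the array files list the pair for different transcripts. That probe gave a difference of 0.38 (SE 0.26), with control replicate 2 at -1.03 and the other control arrays between -0.13 and -0.08.

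Musk, the kinase itself, read 2.0, 1.53, 1.81 and 1.69 in control cells and 2.41, 2.11, 2.01 and 1.87 with macroH2A1.1 siRNA. Control replicate 1 lay within the range of the macroH2A1.1 siRNA samples. The difference was 0.34 (SE 0.14), 1.27-fold with a 95% interval of 1.01 to 1.60, and the limma adjusted p was 0.395 unpaired and 0.071 paired. Its probe lies at chr4:58387070-58387129.

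Lrp4, the agrin receptor, was the only tested member with a lower mean. It read 2.88, 2.56, 2.93 and 2.95 in control cells and 2.72, 2.30, 2.48 and 3.03 with macroH2A1.1 siRNA (probe at chr2:91353566-91353625). Replicate 4 of macroH2A1.1 siRNA was the highest of all 8 arrays, so the groups overlapped. The difference was -0.19 (SE 0.17, 95% interval -0.58 to 0.19, limma adjusted p = 0.728 unpaired and 0.258 paired).

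Rapsn, which anchors the receptor, varied least. It read 5.77, 5.83, 5.81 and 5.95 in control cells and 5.89, 5.80, 5.87 and 6.0 with macroH2A1.1 siRNA (probe at chr2:90885826-90885885). The difference was 0.05 (SE 0.08), and its 95% interval ran from a fold of 0.909 to 1.18 (limma adjusted p = 0.895 unpaired and 0.621 paired).

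Agrn had the widest spread of the organisers in treated cells. Its brighter probe, at chr4:155539415-155539474, read 4.01, 3.61, 3.78 and 3.58 in control cells and 4.05, 4.53, 4.42 and 3.48 with macroH2A1.1 siRNA. Replicates 2 and 3 of macroH2A1.1 siRNA were far above all control arrays and replicate 1 just above them, while replicate 4 was below all of them. The difference was 0.37 (SE 0.23, 95% interval -0.15 to 0.89, limma adjusted p = 0.585 unpaired and 0.256 paired). The other Agrn probe, at position 3611 of the transcript against 7303 for the brighter one, was well above background on 1 of 8 arrays and was not tested.

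Over the 9 members tested, 0 passed limma's adjusted threshold without pairing and 0 passed with it, against 0.0219% and 8.12% of all genes. At an unadjusted p under 0.05 there were 3 without pairing (Chrnd, Dok7 and Musk, against 12.2% of all genes) and 4 with it (also Chrnb1, against 27.9%). Their mean differences were above 0 for 8 of 9, with a median of 0.22, where the median over all genes was 0.0045 and 51.0% of genes were above 0. Groups did not overlap for 2 of 9, Chrnd and Dok7, against 7.96% of all genes (4.41% with the macroH2A1.1 siRNA samples higher). Of the 11 member probes tested singly, 0 passed in limma unpaired (0.004% of all probes) and 0 paired (3.14%), while 3 and 5 had an unadjusted p under 0.05 (10.2% and 23.2% of all probes). No p-value was computed over the members as a set. With the replicate block, Chrnd, Dok7 and Musk passed in 2 other settings. With normexp background correction the limma adjusted p was 0.034, 0.027 and 0.031, where 13.8% of all genes passed, and with the authors' series values it was 0.032, 0.033 and 0.024, where 12.5% passed. Dok7 alone also passed when only probes above background on all 8 arrays were kept (0.045, with 10.4% of all genes).

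**Figure D2:**
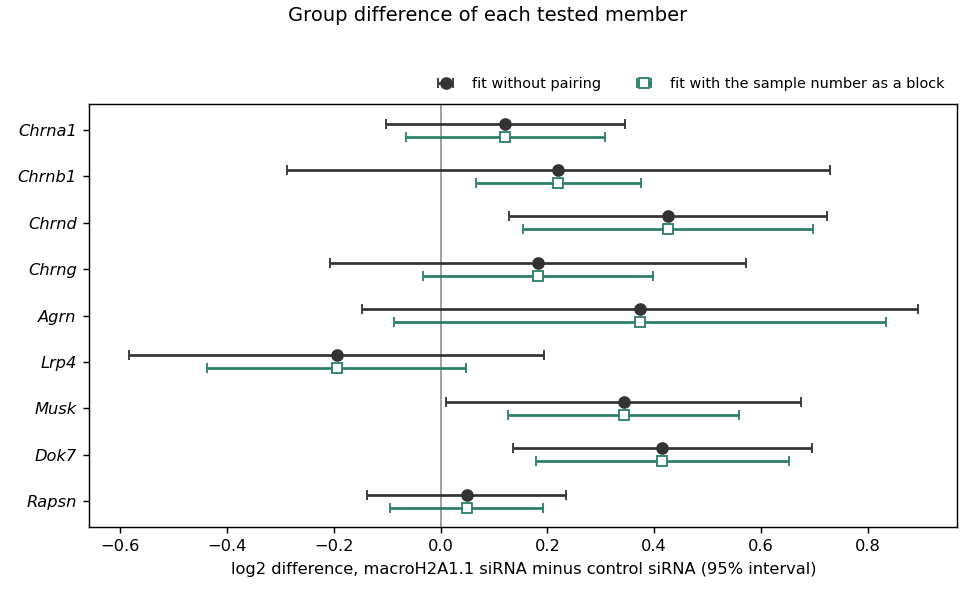
Log2 difference between the siRNA groups for the 9 members tested, with 95% intervals of the limma fit unpaired (filled circles) and paired by replicate (open squares), 4 samples per group. The intervals of Chrnd, Musk and Dok7 lie above 0 in both fits before any adjustment over genes, and Lrp4 is the only gene with a mean below 0. Over all genes 12.2% unpaired and 27.9% paired had an unadjusted limma p under 0.05.

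Differences between samples of the same number showed how even each gene's difference was. Chrnd was higher by 0.77, 0.49, 0.24 and 0.21 in numbers 1 to 4, and Dok7 by 0.69, 0.40, 0.40 and 0.16. Musk was higher by 0.41, 0.58, 0.20 and 0.18, and Chrnb1 by 0.22, 0.33, 0.21 and 0.12. These 4 of 9 members were higher in every pair, as were 20.2% of all genes, and for all 4 of them pair 4 gave the smallest difference. Agrn had another order, with 0.04, 0.91, 0.64 and -0.10. Lrp4 gave -0.15, -0.26, -0.45 and 0.08, and Chrng gave 0.31, 0.21, -0.09 and 0.30.

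Markers of myotubes were higher over the same samples. Of 12 myotube markers, all measured, 7 rose and 0 fell in the paired fit (4.3% and 3.82% of all genes) and 0 passed without pairing (limma, with 3 at an unadjusted p under 0.05, against 12.2% of all genes). Their median difference was 0.32, with pair medians of 0.36, 0.37, 0.30 and 0.31. Their summed signal, as a multiple of each array's 75th percentile, was 1831 to 2553 in control cells and 2245 to 3475 with macroH2A1.1 siRNA. Many receptor and organiser genes are known to rise as myoblasts differentiate, which these samples, all from day 4, cannot show. In bulk RNA more myotubes and more RNA per myotube cannot be told apart. The part of these markers in the members' differences was not tested. Control replicate 2, the lowest array for Chrng, Chrnd, Dok7, Musk, Chrna1 and Lrp4 among controls, also had the lowest myotube level (-0.50 as a median deviation, against -0.21 to 0.10 for the other controls) and the highest level of proliferating myoblast markers (1.14 against -1.20 to 0.18). Chrnb1, Agrn and Rapsn were lowest in other control replicates. Replicate 2 of macroH2A1.1 siRNA had the lowest myotube level of its group (-0.19) and the highest proliferating myoblast level of all 8 arrays (1.44). Within its group it was lowest for Chrng, Chrnd, Lrp4 and Rapsn but not for Chrna1, Chrnb1, Musk or Dok7. For Agrn it was the highest of all 8 arrays.

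**Figure D3:**
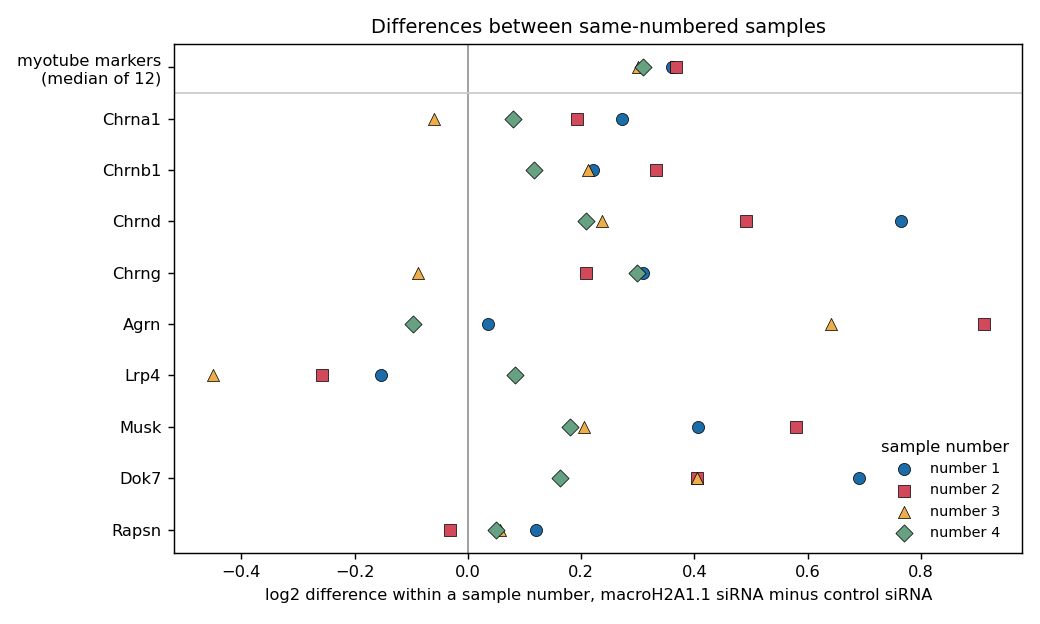
Log2 difference between macroH2A1.1 siRNA and control siRNA for samples of the same number, for each tested member and for the median of 12 myotube markers (top row), 1 point per number. Chrnb1, Chrnd, Musk and Dok7 are above 0 in all 4 numbers, as were 20.2% of all genes, and Agrn is far above 0 in numbers 2 and 3 only.

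Markers of other cell types were measured alongside. Of 10 neuron markers 4 could be tested, and the synaptic vesicle gene Syt1, the neuronal nuclear gene Rbfox3 and the acetylcholine-synthesising gene Chat were among those that could not. Of these 4, 0 passed in either limma fit, and 0 had an unadjusted p under 0.05. Their summed signal was 16.2 to 18.4 in control cells and 15.1 to 17.9 with macroH2A1.1 siRNA. Of 8 Schwann cell markers 6 were tested, and the defining gene Sox10 was not well above background on all arrays of either group. In the paired fit S100b rose by 0.94 (limma adjusted p = 0.034) and Egr2 fell by 1.18 (limma adjusted p = 0.013), and neither passed without pairing. Over all genes 4.3% rose and 3.82% fell with pairing, and 12.2% unpaired and 27.9% paired had an unadjusted p under 0.05. The summed signal of the Schwann cell markers was 17.2 to 22.0 in control cells and 16.7 to 24.5 with macroH2A1.1 siRNA. Of 8 fibroblast markers tested 2 fell and 0 rose with pairing (median -0.27), with a summed signal of 974 to 1274 in control cells and 867 to 1219 with macroH2A1.1 siRNA. Of 5 macrophage and 7 proliferating myoblast markers 0 passed in either limma fit (1 and 0 at an unadjusted p under 0.05), and the summed signal of the latter was 5.7 to 27.4 in control cells and 5.43 to 32.4 with macroH2A1.1 siRNA. The summed signal of the macrophage markers was 21.7 to 24.5 in control cells and 19.3 to 25.8 with macroH2A1.1 siRNA. The part of these cells in the members' differences was not tested.

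The surrounding pathway was examined through 6 lists, in which no gene passed in the unpaired limma fit. At an unadjusted p under 0.05 that fit held 4 genes of the agrin-MuSK list, 3 of the regulators, 2 of the matrix list and 0 of each other list. Over all genes the share was 12.2%. No gene of the array passed the paired fit without number 1 or number 3, so none of the paired calls on list and marker genes held there. The agrin-MuSK signalling list had 27 tested genes, of which 1 fell and 0 rose in the paired fit, against 3.82% lower and 4.3% higher over all genes. Pak1, a kinase downstream of Rac and Cdc42 in receptor clustering, fell by 0.31 (paired SE 0.05, limma adjusted p = 0.036 paired and 0.342 unpaired). Pak1 read 2.16, 2.36, 2.28 and 2.50 in control cells and 1.81, 2.05, 1.95 and 2.24 with macroH2A1.1 siRNA, lower in every pair although the groups overlapped. The median of the list was 0.04, with 16 of its 27 genes above 0, and ran from -0.03 (without macroH2A1.1 siRNA replicate 2) to 0.07 on leaving out single arrays.

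Neuregulin signals through ERBB receptors to ETS factors that act on the genes of synaptic nuclei. Of the 9 tested genes of this list 1 fell and 0 rose with pairing, against 3.82% and 4.3% of all genes. Nrg1, which encodes neuregulin itself, fell by 0.38 (paired SE 0.07, limma adjusted p = 0.036 paired and 0.645 unpaired). Its samples ranged from 1.74 to 2.65 in control cells and from 1.39 to 2.29 with macroH2A1.1 siRNA, so the groups overlapped while every pair was lower. The list median was -0.04, and it turned to 0.09 without control replicate 4 and to 0.04 with the mean of each gene's probes.

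Regulators that tie receptor genes to muscle differentiation and electrical activity included 18 tested genes. Of these 3 rose and 0 fell with pairing, against 4.3% and 3.82% of all genes. Myf6, a myogenic factor of mature fibres, rose by 2.17 (limma adjusted p = 0.026), with control arrays between -1.45 and 0.11 and macroH2A1.1 siRNA arrays between 0.68 and 2.09. Camk2b, a calcium-activated kinase of muscle, rose by 0.88 (paired SE 0.06, limma adjusted p = 0.011), by 0.88, 0.89, 0.75 and 1.0 in the 4 pairs. Myod1, which binds E-boxes, rose by 0.39 (limma adjusted p = 0.039), and its groups did not overlap. The list median was 0.06 (0.03 to 0.12 on leaving out single arrays), and Myog, a factor that drives receptor genes in denervated muscle, read 0.06 (limma adjusted p = 0.660 with pairing).

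Of 18 tested genes of the synaptic matrix and of receptor anchorage, 1 rose and 1 fell in the paired fit, where 4.3% of all genes rose and 3.82% fell. Sntb1, a syntrophin of the dystrophin complex, rose by 0.65 (limma adjusted p = 0.015), from -1.28, -2.18, -1.84 and -1.82 in control cells to -0.80, -1.51, -1.12 and -1.08. Vcan, the proteoglycan versican, fell by 0.66 (limma adjusted p = 0.035), from 4.35, 4.44, 5.05 and 4.17 in control cells to 3.70, 3.68, 4.11 and 3.89, and its groups did not overlap. Ache, the enzyme that breaks down acetylcholine, read 0.25 (SE 0.27), and Colq, its collagen tail, read -0.23 (SE 0.20), with limma adjusted p of 0.345 and 0.382 with pairing. The list median was 0.07 (0.03 to 0.11 on leaving out single arrays).

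The 2 remaining lists had 0 genes past the threshold in either fit. Of 11 subunits of neuronal and other nicotinic receptors 5 could be tested, and the largest difference was -0.36 (SE 0.20) for Chrnb4, with a list median of -0.15 (-0.22 to -0.06 on leaving out single arrays) that was 0.04 when probes near background were kept. At an unadjusted p under 0.05 this list had 0 genes without pairing and 1 with it in limma, against 12.2% and 27.9% of all genes. Of 9 genes for receptor assembly and glycosylation 7 were tested, and the largest difference was -0.18 (SE 0.10) for Alg2, a mannosyltransferase, with 0 genes at an unadjusted p under 0.05 in either limma fit. Its list median was -0.09, and -0.00043 when probes near background were kept.

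**Figure D4:**
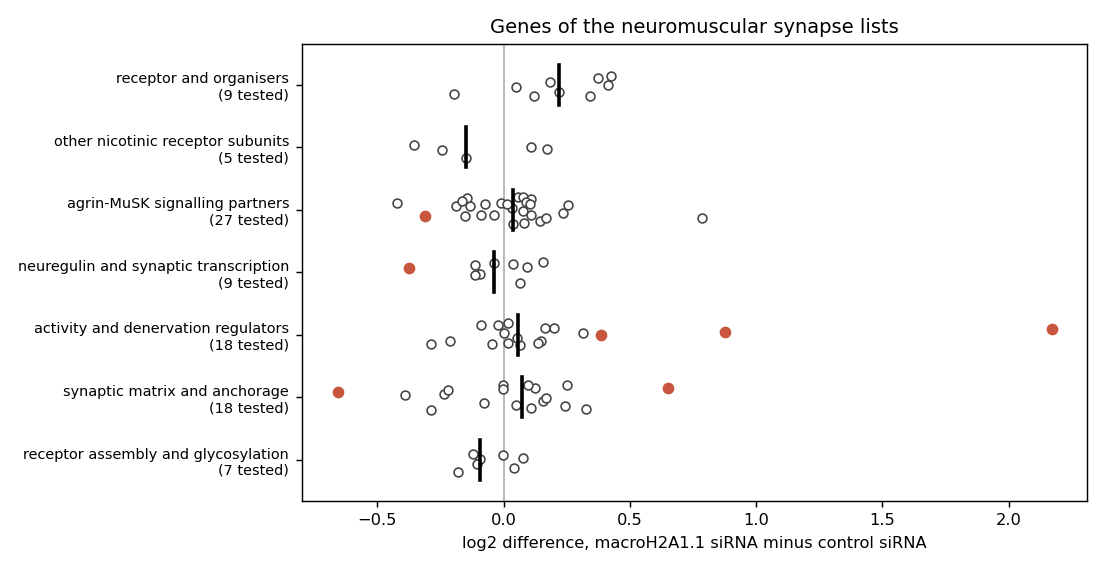
Log2 difference between the siRNA groups for each tested gene of the receptor and organiser set and of 6 lists of synapse genes, 1 point per gene with a bar for the list median. Filled points passed the limma threshold with the replicate block: Pak1, Nrg1 and Vcan lie below 0 and Myod1, Sntb1, Camk2b and Myf6 above, while no receptor or organiser gene is filled. Over all genes 3.82% fell and 4.3% rose in that fit.

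The genes whose values followed Chrng and Musk most closely over the 8 arrays were found by the root mean square difference after centring each gene on its own mean. For Chrng, which varied by 0.24 around its mean, they were Rbm19, Cpeb3 and Qrsl1, at 0.084, 0.084 and 0.088. For Musk, which varied by 0.25, they were Impact, Uros and Rbm4, at 0.075, 0.075 and 0.078. The differences between groups of these 6 genes lay between 0.14 and 0.37. The search itself takes in any shift between the groups, so these differences had to lie near those of Chrng and Musk. Chrne could not be compared in this way.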

How the data were processed

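Each sample (500 ng of RNA, per the labels) was hybridised to 1 array, all on 1 slide. The spot intensity values were extracted and background-subtracted by the authors with Feature Extraction 10.7.3.1 (mm9), per the file headers. The series table deposited by the authors holds log2 values, as its agreement with each array's log2 median signal showed (r from 0.9977 to 0.9996), with the same median (6.29) in every column. Its scale and normalization are not stated, and it served as an alternative.

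Each array's 75th percentile was subtracted from its log2 processed intensity values. Outlier spots, 143 to 236 on an array, were removed, and spots of 1 probe were averaged. A probe was kept if either siRNA group had it well above background on 4 of 4 arrays (24988 of 55681). Each gene was represented by its brightest kept probe (13710 genes), with names from RefSeq by accession or symbol. Signals of different probes are not compared as levels. The siRNA groups were tested against each other in limma 3.58.1 (R 4.3.3; two-sided, Benjamini-Hochberg over all genes). The labels speak of biological replicates without naming separate cultures, and p-values reflect only the variation among the 8 samples. Same-numbered samples were also neighbours on the slide, and culture and position cannot be told apart. All control samples lay in array columns 1 and 3 and all macroH2A1.1 siRNA samples in columns 2 and 4. Each column thus held 1 siRNA group only, so siRNA and column cannot be told apart, also not with the column as a random block. Pairing follows the rule that every same-number correlation exceeds 0.1, a rule and result already known from earlier work on these data. Members and lists, too, were chosen with earlier results of these data known. Named list genes are the largest up to 3 past the threshold per list, or else the largest. Myog, Ache, Colq, S100b and Egr2 were named after their values were seen. Scripts were tested on simulated data. Columns of other series numbered 0. Alternatives covered background correction, normalization, filters, probe averaging, slide position, variance model, array weights and leaving out arrays or pairs.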

Additional observations from a re-analysis of the deposited data

Results flagged for a closer look

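Of 22 sets of 4 arrays (11 tested member probes in each siRNA group), 2 held a sample far from the others, and chance alone marks about 1 in 20 such sets. Chrng in control replicate 2 read 2.82, against 3.28 to 3.33 in the other controls. The dimmer Dok7 probe in control replicate 2 read -1.03, against -0.13 to -0.08. Both are the same array, which also had the lowest myotube and the highest proliferating myoblast marker level among controls. The part of these markers was not tested.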

How the results depend on the processing

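Over 34 other settings, 13 of them with the replicate block, all 9 tested members kept the direction of their difference, and 8 of 9 stayed above 0. Their median ran from 0.11 (without macroH2A1.1 siRNA replicate 1) to 0.34 (without control replicate 1). No member passed in the 21 settings without the block. With the block the count of members past the threshold was 0, as in the fit without pairing. It was 3 (Chrnd, Dok7 and Musk) with normexp and with the authors' series values, where 13.8% and 12.5% of all genes passed. With the filter on all 8 arrays it was 1 (Dok7, limma adjusted p = 0.045), where 10.4% of all genes passed. Of 11 member probes 3 passed with normexp and 3 with the series values, and the share of all probes passing there was not computed. Leaving out any replicate, with or without the block, gave 0 members and 0 member probes. The count of 3 genes over the whole array was 1 with median centring, 10 with the array row as a block, 7 with the array column as a random block and 7 with array weights, and ranged from 0 to 11 on leaving out 1 array. With pairing by the replicate block it was 1113, and with the block it was 1897 with normexp, 1036 with quantile normalization, 1714 with the series values, 0 when probes near background were kept, 1358 with the filter on all 8 arrays, 794 with median centring, 927 with the mean of a gene's probes and 1083 with the percentile over spots above background on all arrays, a setting added after seeing the data. Leaving out 1 replicate number in both groups gave 0 to 535. The cause of these changes was not tested, and the fits that left out a replicate number also had fewer samples. Of the 7 pathway-list genes called with pairing, Pak1 and Myod1 passed in 7 of the 13 settings with the block, Nrg1 in 8, Myf6, Sntb1 and Vcan in 9 and Camk2b in 10, and in 0 of the 21 without it. The comparison of Chrne with Chrng was not run in any setting, since Chrne was not well above background on any macroH2A1.1 siRNA array. When probes near background were kept, Chrne entered the fit and had an unadjusted limma p under 0.05 with and without the block. So did 16.5% and 8.67% of all genes, and Chrne did not pass after adjustment. With Chrne well above background on 1 of 8 arrays, that p-value compares signals near background and says nothing of a group difference. The median difference of all genes was 0.0045, -0.014 with median centring, 0.011 with normexp and 0.049 when probes near background were kept. Chrne and the dimmer Agrn probe were well above background on 1 of 8 arrays, which left no difference to give.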

Other observations

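The uneven response of Agrn led to a look at its surroundings, chosen after its values were seen. In the RefSeq gene table the next protein-coding gene after Agrn is Isg15, an interferon-induced ubiquitin-like modifier. The protein-coding gene before Agrn, Rnf223, was not looked at. Isg15 was higher with macroH2A1.1 siRNA by 0.93, 3.66, 2.91 and 0.60 in numbers 1 to 4, where Agrn gave 0.04, 0.91, 0.64 and -0.10. Both genes were highest in macroH2A1.1 siRNA replicates 2 and 3, at 5.93 and 5.40 for Isg15 and 4.53 and 4.42 for Agrn. Isg15 itself did not pass (difference 2.02, limma adjusted p = 0.385 unpaired and 0.082 paired). The genes closest to Agrn over the 8 arrays were Ifi202b and Iigp1, both interferon-inducible, and Garem1, with root mean square differences of 0.163, 0.163 and 0.177. Agrn itself varied by 0.36 around its mean, so these matches were looser than those of Chrng and Musk. These are descriptions of 8 arrays, without a test.

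For Dok7 and Musk the search for like patterns gave the same nearest gene, Impact, at 0.056 and 0.075. For Chrnd the nearest gene was Lactb, at 0.074. The searches for Dok7, Chrnd and Agrn were added to those planned for Chrng, Chrne and Musk. They too take in any shift between the groups, which was 0.42 for Dok7, 0.34 for Musk and 0.37 for Impact. A shared nearest gene is thus in part built in.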
